A study of Danio rerio with 34 samples.

Results

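The RNA of elavl1a morphants was followed over the 2 hours in which zebrafish embryos begin to gastrulate. The members are the 4 RNA-seq libraries labelled elavl1a morphant, 2 of 6 h.p.f. (hours post-fertilization) and 2 of 4 h.p.f., out of 34 samples in the series. The remaining samples hold RNA structure profiles, Elavl1a crosslinking libraries and RNA-seq of controls at 2, 4 and 6 h.p.f.. Morphants at 6 h.p.f. were compared with morphants at 4 h.p.f., and controls at 6 h.p.f. with controls at 4 h.p.f. gave the same interval without the knockdown.

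All embryos were of the wild-type strain AB and whole embryos were lysed. Morphants had received a morpholino against elavl1a at the one-cell stage, one that blocks translation of the mRNA. The controls are labelled only as normal embryos, and although the methods name a control morpholino injected at the same stage, no source used here says outright that these libraries came from embryos that received it. Poly(A) RNA was selected before library making, so a change can be one of amount or of the tail. The hours are clock times. The paper reports that elavl1a morphants reached sphere moderately late and that their gastrulation was markedly delayed. Morphants and controls of the same hour may thus differ in stage, and this was not tested. The labels do not say whether the 2 libraries of a group came from separate clutches, so p-values measure only the spread between these libraries. In whole embryos fewer cells of a type and less RNA per cell cannot be told apart.

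An early zebrafish embryo lives on mRNA that the mother laid down in the egg. Around the midblastula stage its own genome is switched on, and much of the maternal mRNA is cleared while zygotic transcripts take its place. At the onset of gastrulation cells move inwards at the margin to form mesoderm and endoderm, the enveloping layer covers the blastoderm as a thin epithelium, and the yolk syncytial layer below handles the lipid of the yolk. Elavl1a, a protein that binds U-rich RNA, is a member of the Hu family, which is known for stabilizing mRNA.

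The morphant libraries held 61776396 to 74063424 uniquely assigned reads and listed 12079 to 12530 transcripts. RPKM (reads per kilobase of transcript, scaled to the mapped reads of the library) gives levels, and unique reads were tested with edgeR's quasi-likelihood F test, scaled by library totals, with Benjamini-Hochberg adjustment over 9945 transcripts of at least 1 RPKM on average. For lists, each of the 9871 genes is given by its transcript with most reads. A gene absent at 2 and 4 h.p.f. passes the 1 RPKM level only through its 6 h.p.f. values, so lists of zygotic genes can lean towards rises. SEs come from the F value and tend to be understated where the change is large. The biological coefficient of variation was 0.0268, so that even small changes passed the test. The 2 morphant libraries of a stage differed by more than sampling noise (chi-square per degree of freedom, 3.36 for the later and 4.1 for the earlier stage).

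The elavl1a transcript had 343 and 342 RPKM in morphants at 6 h.p.f., against 205 and 204 RPKM at 4 h.p.f. This rise was 0.74 on the log2 scale (SE 0.0177, adjusted p 1.27e-19 from edgeR). A morpholino that blocks translation leaves the mRNA in place, so this level is no check of the knockdown. Its paralogue elavl1b did not reach 1 RPKM on average over all RNA-seq libraries in any of its transcripts and was not tested. The elavl1b transcript with most reads had 0.924 and 1.098 RPKM in morphants at 6 h.p.f., against no read in either morphant library of 4 h.p.f. Controls of 6 h.p.f. had 0.166 and 0.147 RPKM of it. Another relative, elavl2, had 6.31 and 6.05 RPKM at 6 h.p.f. in morphants, against 40.9 and 41.4 RPKM at 4 h.p.f., and fell (log2 change −2.87), while controls had 15.5 and 40.5 RPKM on average.

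Nearly the whole transcriptome of morphants moved between the stages. Of 9871 genes, 9232 were called at an adjusted p under 0.05 (93.5%), of which 3151 were higher at the later stage (31.9%) and 6081 lower (61.6%). By over 2-fold, 1672 genes were higher (16.9%) and 4179 lower (42.3%). In controls 9200 were called (93.2%), 2956 higher (29.9%) and 6244 lower (63.3%). These shares are the background against which each list below is read. With TMM scaling, which takes most genes as unchanged, 4365 were higher (44.2%) and 4751 lower (48.1%). Scaled by library totals, the median log2 change of all genes was −0.66. TMM made it −0.09 and DESeq2 size factors 0.07. A log2 change between −0.73 and 0 therefore changes sign with one scaling or the other, and list medians are also given relative to the median of all genes, which scaling leaves in place.

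In morphants, though not in controls, the 10 most abundant transcripts of a library took a larger share of reads at the later stage. The 10 most abundant transcripts of a control library made up 7.44% and 7.36% of its reads at 6 h.p.f. They made up 7.33% and 7.37% at 4 h.p.f. In morphants the 10 most abundant transcripts of a library made up 8.77% and 8.71% of its reads in the later stage, against 4.82% and 4.89% in the earlier one. The gene that gained most, chosen after its values were seen, was eef1a1l1, a translation elongation factor, with 2.15% and 2.14% of unique reads at 6 h.p.f., against 0.727% and 0.729% at 4 h.p.f. Next came hnrnpa0l, an RNA-binding protein gene, and the keratin genes krt8 and krt4. The largest loss was that of h1m, the maternal linker histone, with 0.0245% and 0.0255% at 6 h.p.f. against 0.319% and 0.322% at 4 h.p.f. Each of these genes moved in the same direction in controls. There eef1a1l1 had 2.387% and 2.409% at 6 h.p.f. against 0.858% and 0.869% at 4 h.p.f. In controls h1m had 0.0325% and 0.0329% against 0.275% and 0.276%.

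**Figure D1:**
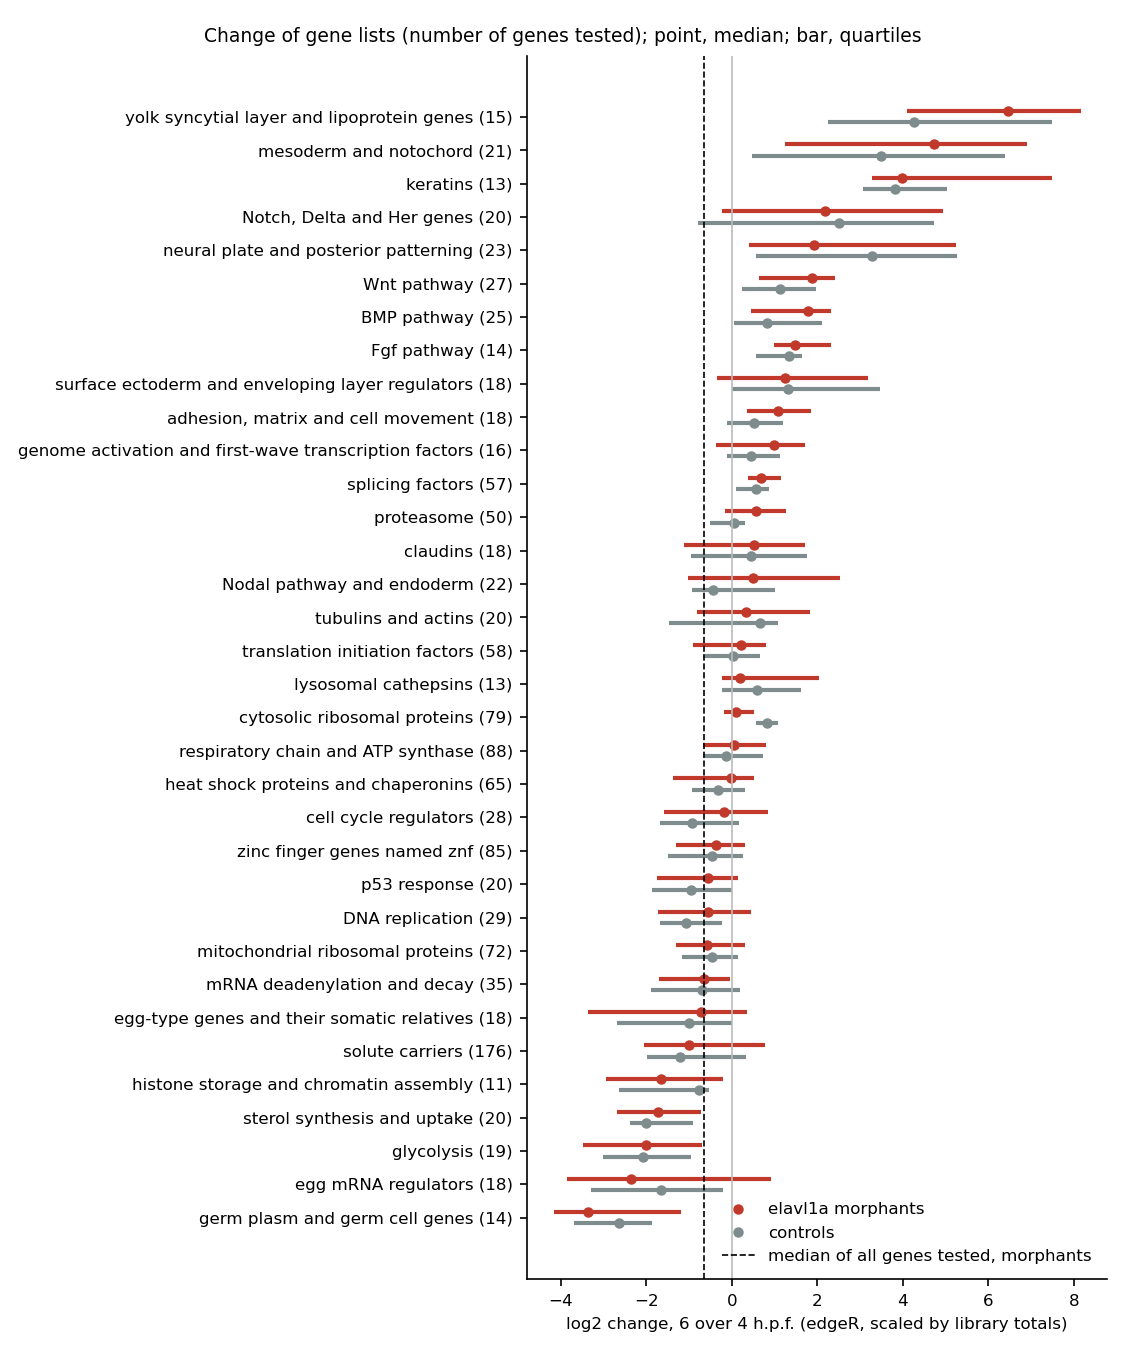
Log2 change from edgeR, 6 over 4 h.p.f. (horizontal axis), of the gene lists with at least 11 genes tested, morphants in red above controls in grey. Points are medians, bars run between the quartiles and the dashed line is the median of all genes in morphants (−0.66). Yolk syncytial layer, mesoderm and keratin lists lie farthest to the right and the germ plasm list (median −3.37) farthest to the left.

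Regulators of stored mRNA were lower no more often than genes in general, but their median was low. Of 18 tested, 11 were lower (61.1%, against 61.6% of all genes) and 6 higher (33.3%, against 31.9%), with a median of −2.36, a difference of −1.70 from that of all genes. The list also counts eloal, an egg-type relative of the transcription elongation factor elongin A and thus not a regulator of stored mRNA by name. The eloal transcript had 2.04 and 1.97 RPKM in morphants at 6 h.p.f., against 147 and 150 RPKM at 4 h.p.f. This makes −6.50 on the log2 scale (SE 0.0393, adjusted p 4.09e-29 from edgeR), the lowest of the list. Levels of btg4, which recruits the deadenylase to maternal mRNA in mammals, were 5.66 and 4.83 RPKM at 6 h.p.f. and 261 and 257 RPKM at 4 h.p.f. The storage granule gene lsm14b and the histone mRNA-binding slbp2 fell by 5.23 and 4.52 on the log2 scale. Also lower were dazl, cpeb1b and zar1l, which bind maternal mRNA (−3.48, −3.98 and −3.53). In these genes the stages were far apart and the 2 libraries of a stage close together.

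Not all regulators of this list followed. The Y-box gene ybx1, whose product binds maternal mRNA, had 161 and 158 RPKM at 6 h.p.f. against 34.3 and 33.7 RPKM at 4 h.p.f. The m6A reader gene ythdf2 had 93.4 and 92.6 RPKM against 35.4 and 36.8 RPKM. Both rose (log2 changes of 2.23 and 1.41). In controls the change of ythdf2 was −0.16, so morphants exceeded them by 1.57 (edgeR adjusted p for the difference 5.55e-15). The celf1 transcript, which encodes another RNA-binding protein, averaged 5.55 RPKM at 6 h.p.f. and 1.05 RPKM at 4 h.p.f. in morphants, while controls averaged 0.868 and 0.952 RPKM.

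Germ plasm and germ cell genes had the lowest median of all lists with at least 11 genes tested, −3.37. Of 14 tested, 12 were lower (85.7%) and 1 was higher. Bucky ball (buc), which organizes the germ plasm, had 7.15 and 7.87 RPKM in morphants at 6 h.p.f., against 228 and 232 RPKM at 4 h.p.f. Also lower were the Tudor gene tdrd1 (log2 change −4.57), the translational repressor nanos3 (−3.26) and dnd1, whose product protects germ cell mRNA (−2.66). By comparison, vasa (ddx4) stood at 150 and 147 RPKM at 6 h.p.f. and 165 and 164 RPKM at 4 h.p.f. (log2 change −0.15, 0.42 with TMM). The single member that rose was tdrd9, with 21.3 and 19.8 RPKM against 11.6 and 11.1 RPKM. Bulk RNA does not show in which cells these transcripts remained.

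Histone genes of the egg fell steeply. The egg histone H2A gene h2af1al had 38.9 and 37.7 RPKM at 6 h.p.f., against 2532 and 2658 RPKM at 4 h.p.f. (log2 change −6.15, edgeR adjusted p 3.38e-29). The linker histone h1m had 183 and 191 RPKM at 6 h.p.f., against 2371 and 2398 RPKM at 4 h.p.f. Of the 11 genes of histone storage and chromatin assembly, 9 were lower (81.8%) and 2 higher. Those that rose were slbp, the somatic stem-loop binding protein (107 and 106 RPKM against 40.1 and 37.3 RPKM), and the histone chaperone npm1a (1699 and 1677 RPKM against 601 and 594 RPKM). Hence slbp2 and slbp, a pair of relatives, moved in opposite directions.

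Other pairs of relatives moved apart in some cases and together in others. The elongin pair gave −6.50 for eloal and 0.90 for eloa. The poly(A)-binding proteins gave −2.85 for pabpc1l and 0.23 for pabpc1a, which stayed at 969 RPKM on average at 6 h.p.f. against 825 RPKM at 4 h.p.f. The A-type cyclins gave −4.11 for ccna1, with 63.9 RPKM on average at 6 h.p.f. against 1073 RPKM at 4 h.p.f., and −0.12 for ccna2, with 513 and 556 RPKM. The nucleoplasmins gave −1.65 for npm2a and 1.49 for npm1a. The relatives zar1l and zar1, each an oocyte gene, both fell (−3.53 and −1.87). The log2 changes of gapdhs and gapdh were −0.62 and −0.84, and for the cap-binding eif4e1b and eif4ea the log2 changes were 0.26 and 2.80. Members of the pairs btg4 with btg3 and wee2 with wee1 were not all tested.

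Cell cycle genes were divided, with 12 of 28 higher (42.9%) and 16 lower (57.1%), and a median of −0.19 that turns positive with TMM. The meiotic genes were among the lower ones. The kinase mos, which holds the egg in meiosis, had 2.73 and 3.00 RPKM at 6 h.p.f. and 70.7 and 71.1 RPKM at 4 h.p.f., and fbxo43, its partner in that arrest, fell by 3.99. The phosphatase gene cdc25b, which drives entry into mitosis, had 107 and 107 RPKM against 328 and 331 RPKM. Conversely cdk1, the mitotic kinase, had 105 and 104 RPKM at 6 h.p.f., against 19.8 and 20.6 RPKM at 4 h.p.f. The cyclins ccne2 and ccnb3 rose by 2.02 and 1.78.

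For several of these genes the log2 change in morphants lay above that of controls, which for ccnb1 means a smaller fall. Levels of ccnb1, the main mitotic cyclin, were 592 and 596 RPKM in morphants at 6 h.p.f. and 680 and 677 RPKM at 4 h.p.f., whereas controls averaged 248 and 702 RPKM (difference of log2 changes 1.32, edgeR adjusted p 2.0e-21). The difference was positive for plk1, a mitotic kinase, and cdc20, an activator of the anaphase complex (0.98 for each). Over the list it was called higher in 16 of 28 genes (57.1%) and lower in 8, where all genes gave 35.3% and 38.9%. The G1 cyclin ccnd1 went the other way (−0.75), with 592 and 590 RPKM at 6 h.p.f. against 472 and 463 RPKM in morphants, and 1042 against 491 RPKM in controls on average.

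DNA replication genes showed the same more often. Their median change of −0.55 in morphants lay 0.10 above that of all genes, and in controls the median lay below it (−0.44). The difference of changes was called higher in 22 of 29 (75.9%) and lower in 4. Among the MCM helicase genes, mcm3 had 196 and 197 RPKM in morphants at 6 h.p.f., against 17.8 and 18.1 RPKM at 4 h.p.f., and controls averaged 73.7 and 29.1 RPKM. The log2 changes of mcm6 and pcna, the sliding clamp, were 3.81 and 1.25. The licensing gene cdc6 had 271 and 272 RPKM at 6 h.p.f. and 198 and 198 RPKM at 4 h.p.f. in morphants, but 92.5 and 207 RPKM in controls (difference 1.64, edgeR adjusted p 2.4e-21). The largest falls of the list were those of orc6, a subunit of the origin complex, and gmnn, the geminin gene that inhibits licensing (−2.86 and −2.51).

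The machinery of mRNA decay was lower in 26 of 35 genes (74.3%) and higher in 9, and with TMM lower in 17 and higher in 13. Their median, −0.65, was that of all genes within 0.01. The deadenylase subunit cnot7 had 1.20 and 1.15 RPKM at 6 h.p.f. against 11.6 and 10.4 RPKM at 4 h.p.f., and parn, a second deadenylase, 2.86 and 3.12 RPKM against 24.6 and 25.1 RPKM. In the other direction the decapping enzyme gene dcp2 had 38.0 and 39.6 RPKM against 9.57 and 10.2 RPKM, and tnrc6a, the partner of Argonaute, 65.6 and 69.0 RPKM against 13.1 and 14.5 RPKM. The scaffold gene cnot1 rose by 0.68.

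The transcription factors that open the zygotic genome did not move alike. The nanog transcript had 49.6 and 51.2 RPKM in morphants at 6 h.p.f., against 810 and 818 RPKM at 4 h.p.f. (log2 change −4.06, edgeR adjusted p 6.97e-31). For sox19b, the maternal SoxB1 factor, the values were 26.7 and 26.9 RPKM at 6 h.p.f. and 228 and 222 RPKM at 4 h.p.f. The remaining activator of the trio, pou5f3, rose (890 and 879 RPKM at 6 h.p.f., 405 and 406 RPKM at 4 h.p.f.). Zygotic SoxB1 genes rose as well, sox2 most of them (91.9 and 89.2 RPKM at 6 h.p.f. against 0.525 and 0.850 RPKM at 4 h.p.f.) and sox3 by a log2 change of 1.23. The yolk syncytial factor mxtx2 fell, by 3.79, and less than in controls (−6.19).

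**Figure D2:**
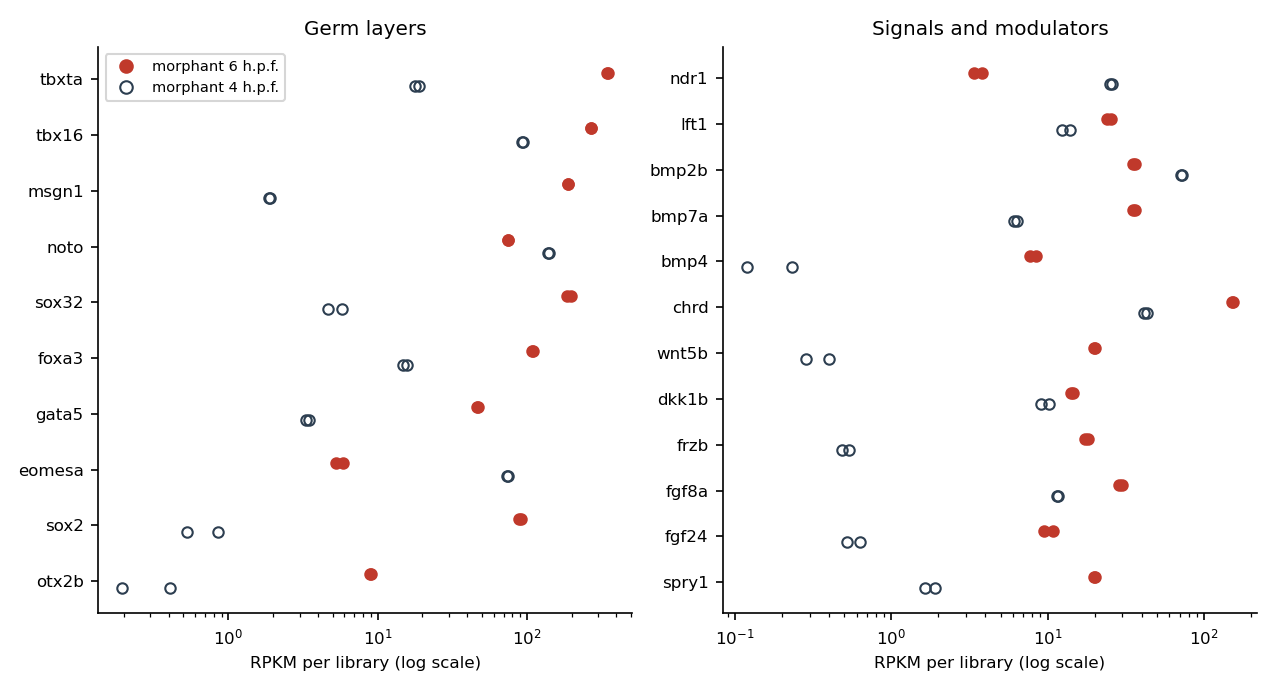
RPKM on a log axis in the 2 morphant libraries of 6 h.p.f. (filled) and the 2 of 4 h.p.f. (open) for genes of the germ layers (left) and for signals and their modulators (right). For noto, eomesa, ndr1 and bmp2b the 6 h.p.f. points lie left of the 4 h.p.f. points, and for the other genes to their right.

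Mesoderm and notochord genes rose in most cases. Of 21 tested, 18 were higher (85.7%) and 2 lower, with a median of 4.73. Only 4 of the 21 reached 1 RPKM in controls at 2 h.p.f., so most passed the level filter through later levels. The Brachyury gene tbxta had 350 and 348 RPKM at 6 h.p.f., against 17.9 and 19.0 RPKM at 4 h.p.f. (log2 change 4.33, edgeR adjusted p 2.7e-28). The presomitic factor msgn1 stood at 188 and 190 RPKM, against 1.86 and 1.90 RPKM, and tbx16l at 31.4 and 30.4 RPKM, against 0.291 and 0.398 RPKM. For the T-box gene tbx16 the values were 272 and 268 RPKM at 6 h.p.f. and 92.6 and 94.6 RPKM at 4 h.p.f., a rise of 1.53 where controls had 0.37. The 2 that were lower were noto, a notochord homeobox gene (74.4 and 74.7 RPKM against 142 and 139 RPKM), and the apelin receptor aplnrb (86.2 and 84.8 RPKM against 183 and 183 RPKM).

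Endoderm genes and the Nodal ligands that induce them parted. The ligand gene ndr1 (squint) had 3.80 and 3.37 RPKM in morphants at 6 h.p.f., against 25.0 and 26.0 RPKM at 4 h.p.f. The T-box factor gene eomesa had 5.91 and 5.28 RPKM against 75.2 and 73.3 RPKM. The second ligand, ndr2, had 14.9 and 14.7 RPKM against 13.5 and 13.7 RPKM (edgeR adjusted p 0.14). The endoderm determinant sox32 rose to 188 and 198 RPKM at 6 h.p.f., against 5.79 and 4.67 RPKM at 4 h.p.f., and its target sox17 to 9.45 and 9.38 RPKM against 0.352 and 0.310 RPKM. The forkhead gene foxa3 had 108 and 109 RPKM against 15.7 and 14.8 RPKM. For gata5, an activator of sox32, the values were 46.9 and 46.3 RPKM against 3.45 and 3.31 RPKM.

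Over this list the change was called higher in morphants than in controls in 16 of 22 genes (72.7%) and lower in 5. For mixl1, a homeobox gene of mesendoderm, the signs were opposite, since morphants had 45.5 and 48.1 RPKM at 6 h.p.f. against 19.2 and 18.1 RPKM at 4 h.p.f. and controls averaged 26.7 and 38.5 RPKM (difference 1.93, edgeR adjusted p 1.0e-16). The Nodal co-receptor tdgf1 was 1.45 higher in its change, sox32 1.95 and gata6 2.65.

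In the BMP pathway, which patterns the embryo from dorsal to ventral, 19 of 25 genes were higher (76.0%) and 6 lower. The ligand bmp7a rose, with 35.4 and 36.2 RPKM at 6 h.p.f. against 6.11 and 6.41 RPKM at 4 h.p.f., and bmp4 had 7.69 and 8.41 RPKM against 0.120 and 0.232 RPKM. Their partner bmp2b fell, to 36.4 and 35.2 RPKM against 71.8 and 72.6 RPKM, a log2 change of −1.05 where controls had −0.04. Of the antagonists, chrd (chordin) had 153 and 153 RPKM at 6 h.p.f. against 41.5 and 43.3 RPKM at 4 h.p.f., and nog1 rose by 2.29. The receptor gene bmpr1ba fell to 1.58 and 1.76 RPKM, against 40.3 and 40.1 RPKM. Levels of id3, a target of BMP signalling, were 106 and 107 RPKM against 12.0 and 11.1 RPKM. No unique read of smad1 was listed at 4 h.p.f., against 5.32 RPKM in both morphant libraries of 6 h.p.f., so no fold is given.

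Wnt genes were higher in 22 of 27 cases (81.5%) and lower in 4, with a median of 1.88. The ligand wnt5b, which guides convergence and extension, had 19.76 and 20.01 RPKM at 6 h.p.f., against 0.286 and 0.399 RPKM at 4 h.p.f. The β-catenin gene ctnnb1 stood at 888 and 884 RPKM, against 236 and 232 RPKM, and the receptor fzd7a at 252 and 256 RPKM, against 97.0 and 96.0 RPKM. The secreted inhibitors frzb and sfrp1a rose by 5.64 and 2.01. Of the target genes, sp5l had 287 and 288 RPKM against 5.87 and 5.10 RPKM, a log2 change of 5.91 where controls had 6.96. Negative changes were those of axin1, a part of the destruction complex (−1.55), lef1, prickle1b and lrp5 (−0.60, −0.60 and −0.41, within the range that scaling can turn).

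Of 19 Fgf genes and feedback inhibitors listed in any library 14 passed the level filter, and of these 12 were higher (85.7%). Members under the filter did not all rise, as etv5a was lower at 6 h.p.f. in morphants. The ligand fgf20a, named below for having no unique read at 6 h.p.f., is not in the list. The ligand fgf8a had 28.7 and 29.8 RPKM at 6 h.p.f. against 11.6 and 11.5 RPKM at 4 h.p.f., and fgf24 had 9.55 and 10.8 RPKM against 0.518 and 0.628 RPKM. Another ligand, fgf17, fell (14.9 and 15.2 RPKM against 42.0 and 41.4 RPKM). The inhibitors spry1, spry4 and dusp6 rose by 3.64, 2.17 and 1.47, and the ETS factor etv4 had 180 and 180 RPKM against 35.7 and 35.9 RPKM. In spred2b, another inhibitor, morphants had 7.24 and 8.65 RPKM at 6 h.p.f. and 11.9 and 11.6 RPKM at 4 h.p.f., while controls averaged 21.1 and 10.3 RPKM (difference −1.75, edgeR adjusted p 2.70e-12).

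Of 27 neural and posterior patterning genes listed in any library 23 passed the level filter. Of these, 17 were higher (73.9%) and 3 lower. Members under the filter did not all rise, as gbx2, rx3 and pax2a were lower at 6 h.p.f. in morphants. Their median of 1.93 in morphants lay 2.58 above that of all genes, and the control median 3.93 above. The retinoic acid synthase gene aldh1a2 had 82.2 and 81.2 RPKM at 6 h.p.f., against 0.186 and 0.242 RPKM at 4 h.p.f. The forebrain and midbrain factor otx2b had 8.86 and 9.07 RPKM against 0.405 and 0.195 RPKM in morphants, and 18.4 against 0.165 RPKM in controls. Its change was smaller in morphants by 3.13 in log2 units (difference −3.13, edgeR adjusted p 1.5e-05), on few reads at 4 h.p.f. The forebrain gene fezf2 fell, to 0.485 and 0.440 RPKM against 5.01 and 4.65 RPKM, and otx1 had 51.9 and 50.9 RPKM against 104 and 105 RPKM. The retinoic acid-degrading cyp26a1 had 89.6 and 89.8 RPKM at 6 h.p.f. and 87.8 and 89.8 RPKM at 4 h.p.f.

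Of 36 hox and cdx genes listed in any library only 4 passed the level filter. The caudal genes cdx4 and cdx1a, which set posterior identity, reached 152 and 152 RPKM and 13.6 and 13.5 RPKM at 6 h.p.f., and cdx1a had no unique read at 4 h.p.f. The first Hox gene of the hindbrain, hoxb1b, had 7.03 and 7.96 RPKM against 0.153 and 0.271 RPKM. Of the 4, hoxd9a went the other way, with no unique read at 6 h.p.f. and 3.25 and 2.88 RPKM at 4 h.p.f. Most hox genes lay under the filter. Many of those were listed in morphants at 4 h.p.f. but not at 6 h.p.f., and fewer the other way round, so the 4 do not stand for the list. Genes of differentiated tissues stayed low. Of 12 such genes listed, 2 passed the filter, ckma and ins, both under 3 RPKM in every morphant library.

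The Notch list, in which oscillating her genes are included, was higher in 15 of 20 cases and lower in 5. The clock genes her1 and her7 had 49.5 and 50.6 RPKM and 54.9 and 53.4 RPKM at 6 h.p.f., against 0.522 and 0.522 RPKM and 1.33 and 1.43 RPKM at 4 h.p.f. The ligand dlc had 23.4 and 23.5 RPKM against 0.392 and 0.550 RPKM, a smaller change than in controls (difference −2.12, edgeR adjusted p 2.83e-08). The midbrain-hindbrain gene her5 fell to 5.44 and 5.79 RPKM, against 101 and 105 RPKM.

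Keratins form the scaffold of the enveloping layer. Of 20 genes matched by name, 13 passed the level filter, and all 13 were higher, each by more than 2-fold (background 16.9%). Only 1 of the 13 reached 1 RPKM in controls at 2 h.p.f., so most passed the filter through later levels. Genes under it stayed below 1 RPKM in every morphant library and did not all rise. The list took 1.96% and 1.95% of unique reads in morphants at 6 h.p.f. against 0.156% and 0.156% at 4 h.p.f. The levels of krt4 were 1887 and 1877 RPKM at 6 h.p.f. and 195 and 195 RPKM at 4 h.p.f., those of krt5 1349 and 1346 RPKM against 38.2 and 38.5 RPKM, and those of krt17 244 and 238 RPKM against 1.09 and 1.31 RPKM. In 11 of the 13 the change was called higher in morphants than in controls (84.6%) and in 1 lower. Keratin genes are alike in sequence, and reads of relatives can be shared. At 4 h.p.f. keratins took 0.262% and 0.262% of unique reads in controls, more than in morphants, and at 6 h.p.f. 2.06% and 2.08%.

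Regulators of the surface ectoderm did not move as one. The annexin gene anxa1c had 80.1 and 78.4 RPKM at 6 h.p.f. against 0.171 and 0.237 RPKM at 4 h.p.f., and evpla, a component of the cornified envelope in mammals, 79.2 and 79.9 RPKM against 4.57 and 4.23 RPKM. The factor tfap2c rose by 3.36. In tp63, the master factor of the epidermis, morphants had 0.583 and 0.542 RPKM at 6 h.p.f. and 1.71 and 1.81 RPKM at 4 h.p.f., but controls averaged 2.23 and 1.30 RPKM (difference −2.83, edgeR adjusted p 9.22e-10). Of 35 claudins listed in any library, which seal tight junctions, 18 passed the level filter. Of these, 9 were higher and 6 lower. Most claudins under the filter, such as cldn33b and cldn10b, were lower at 6 h.p.f. in morphants. Some, such as cldn5a and cldn26, were higher, and neither was tested. The maternal members cldnd and cldng fell to 36.3 and 38.6 RPKM and 23.2 and 24.5 RPKM, against 1157 and 1185 RPKM and 612 and 610 RPKM, while cldnf and cldn8.2 rose by 4.13 and 4.00.

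Of 26 adhesion and movement genes listed in any library 18 passed the level filter, and of these 16 were higher (88.9%). Genes of this kind under the filter went both ways. In morphants pdgfaa was lower at 6 h.p.f. and the laminin gene lama5 higher, and neither was tested. Of the cadherins, cdh2 rose, with 91.2 and 92.1 RPKM at 6 h.p.f. against 6.05 and 5.80 RPKM at 4 h.p.f. The cadherin of the blastula, cdh1, had 143 and 147 RPKM against 222 and 219 RPKM (log2 change −0.62, within the range that scaling can turn). Laminin genes rose in lamb1a by 6.39 and in lama1 by 3.63. The fibronectin gene fn1a and its receptor subunit itga5 rose by 0.48 and 0.30, less than in controls (difference −0.74 and −0.87).

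Yolk syncytial layer and lipoprotein genes had the highest median of the lists with at least 11 genes tested, 6.45 in morphants and 4.25 in controls. Of 22 listed in any library 15 passed the level filter, and of these 13 were higher by more than 2-fold and 2 lower. Only 1 of the 15 reached 1 RPKM in controls at 2 h.p.f., so most passed the filter through later levels. Members under it did not all rise. In morphants fgb and rbp4 were listed at 4 h.p.f. but not at 6 h.p.f. The apolipoprotein genes apoeb and apoa1b had 2508 and 2498 RPKM and 107 and 106 RPKM at 6 h.p.f., against 308 and 309 RPKM and 0.551 and 0.517 RPKM at 4 h.p.f. The antifreeze-type gene afp4 had 1023 and 1051 RPKM against 12.3 and 12.1 RPKM. The difference of changes was higher in 9 of 15 (60.0%) and lower in 1. The 2 that fell were mxtx2 and dab2, an endocytic adaptor (3.24 and 2.68 RPKM against 12.5 and 11.5 RPKM).

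**Figure D3:**
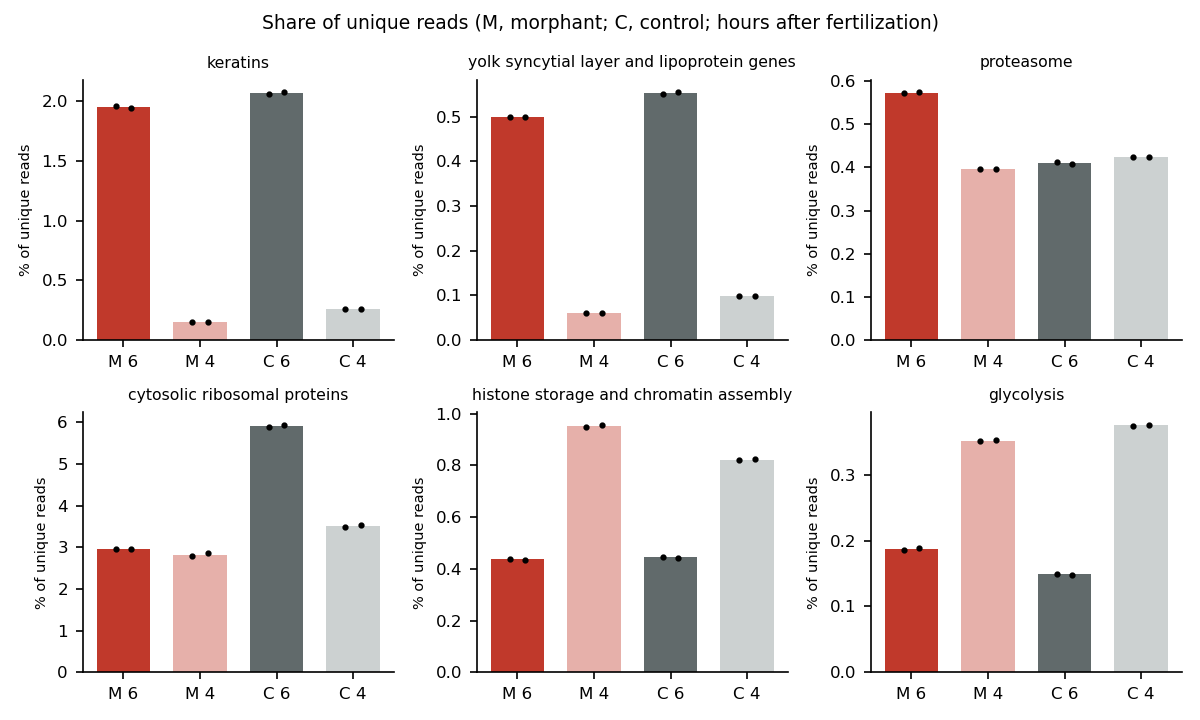
Share of all unique reads, in percent, taken by 6 gene lists in morphants (M) and controls (C) at 6 and 4 h.p.f. Bars are means of the 2 libraries and dots the libraries. Keratins and lipoprotein genes gain in both, whereas cytosolic ribosomal protein genes take 2.96% and 2.97% at 6 h.p.f. against 2.79% and 2.86% at 4 h.p.f. in morphants, and 5.89% and 5.94% against 3.48% and 3.54% in controls.

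Cytosolic ribosomal protein genes changed less in morphants than in controls. In morphants they had a median log2 change of 0.09, with 44 of 79 higher and 26 lower (67 and 6 with TMM). In controls the median was 0.81. The change was called lower in morphants than in controls in 75 of 79 genes (94.9%), against 38.9% of all genes, and higher in 1, rps6. This difference hardly depends on scaling, since TMM shifted the median difference of all genes by −0.001. The large-subunit stalk gene rplp0 had 665 and 658 RPKM in morphants at 6 h.p.f. and 420 and 422 RPKM at 4 h.p.f., where controls averaged 1558 and 537 RPKM.

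The ribosomes of mitochondria did not share this. Of 72 genes, the change was higher in 25 and lower in 25 than in controls, and in morphants 22 rose and 47 were lower, with a median of −0.58. Of 88 respiratory chain and ATP synthase genes, 41 were higher (46.6%) and 37 lower (42.0%), where all genes gave 31.9% and 61.6%, and TMM made this 60 and 25. Their difference from controls was called higher in 35 and lower in 21. Translation initiation factors were higher in 32 and lower in 26 of 58, and the difference from controls was called higher in 26 and lower in 27. The eIF4A gene eif4a2 and the cap-binding eif4ea rose by 2.31 and 2.80, and eif2b1, a subunit of the exchange factor, by 2.65 in morphants and 0.64 in controls. The kinase gene eif2ak1, which blocks initiation, had 4.05 and 4.97 RPKM at 6 h.p.f. against 31.2 and 31.5 RPKM at 4 h.p.f.

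The proteasome list moved opposite to the ribosomal one relative to controls. Of 50 genes, 36 were higher (72.0%) and 14 lower in morphants (41 and 7 with TMM). The list's reads made up 0.572% and 0.574% at 6 h.p.f. against 0.395% and 0.397% at 4 h.p.f., and controls had 0.413% and 0.408% against 0.425% and 0.425%. The difference of changes was called higher in 40 (80.0%) and lower in 4. The core subunit psmb6 had 107 and 108 RPKM at 6 h.p.f., against 19.1 and 20.7 RPKM at 4 h.p.f., and psma6a had 28.9 and 30.0 RPKM against 5.97 and 6.23 RPKM, with 6.61 and 6.24 RPKM in controls. The largest falls were those of psma6l, psmc3ip, a recombination factor taken in by its name, psmb8a, an immunoproteasome subunit, and the inhibitor psmf1 (−3.14, −2.45, −2.20 and −2.01).

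Splicing factor genes were higher in 49 of 57 cases (86.0%) and lower in 8 (52 and 3 with TMM). The SR genes srsf3a, srsf9 and srsf2b, which help to choose splice sites, rose by 3.78, 3.62 and 2.65, and srsf3a had 66.0 and 69.3 RPKM at 6 h.p.f. against 5.08 and 5.08 RPKM at 4 h.p.f. in morphants, with 15.7 and 5.11 RPKM in controls. Of those that fell, lsm1 acts in cytoplasmic decay and not in splicing, and had 6.21 and 5.68 RPKM against 56.38 and 53.05 RPKM.

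Genes of glycolysis and of sterol synthesis were mostly lower. Of 19 glycolysis genes 16 were lower (84.2%) and 3 higher, with a median of −2.01. The kinase gene pgk1 had 4.14 and 3.70 RPKM in morphants at 6 h.p.f., against 104 and 105 RPKM at 4 h.p.f., and the mutase pgam1a 7.34 and 6.14 RPKM against 112 and 108 RPKM. The 3 that rose were aldoaa, hk1 and pfklb. Of these, hk1, a hexokinase gene, had 9.17 and 9.95 RPKM against 0.238 and 0.253 RPKM. The gene hkdc1, given below for its rise, is not in the list. The gapdh transcript fell less than in controls, with 372 and 384 RPKM against 673 and 672 RPKM in morphants and 148 against 621 RPKM in controls (difference 1.25, edgeR adjusted p 1.2e-18).

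Sterol synthesis and uptake followed the same direction, with 16 of 20 lower (80.0%) and 4 higher. The early enzyme gene hmgcs1 had 11.1 and 11.1 RPKM at 6 h.p.f. against 96.0 and 92.6 RPKM at 4 h.p.f., and pmvk, another enzyme of the mevalonate route, fell by 3.64. In the other direction were cyp51, idi1, sqlea and the regulator srebf2 (1.95, 1.44, 1.13 and 0.86). Among 176 solute carriers 114 were lower (64.8%) and 54 higher, close to the background of all genes. The lactate and pyruvate carrier slc16a3b was the most abundant of those named by the rule, with 24.0 and 24.6 RPKM against 603 and 594 RPKM.

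Heat shock and chaperonin genes were higher in 30 (46.2%) and lower in 31 (47.7%) of 65, a larger share higher than the 31.9% of all genes. Their median was 0.65 above that of all genes, and TMM gave 38 higher and 22 lower. Of these, hspb1, a small heat shock protein gene, had 3026 and 2988 RPKM at 6 h.p.f. against 244 and 243 RPKM at 4 h.p.f. in morphants, and 3018 against 420 RPKM in controls, and hsp90aa1.2 had 175 and 175 RPKM against 14.9 and 15.2 RPKM. The p53 response list was higher in 6 and lower in 13 of 20, with a median of −0.55, against −0.66 for all genes. The inhibitor of cyclin-dependent kinases cdkn1a had 5.80 and 5.79 RPKM at 6 h.p.f. and 24.6 and 25.1 RPKM at 4 h.p.f., and controls averaged 2.98 and 10.8 RPKM. The gene sesn3 was apart from the list with 308 and 309 RPKM against 13.3 and 12.6 RPKM. Of 85 znf genes, 28 were higher and 48 lower.

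Of the cathepsins, lysosomal proteases that also act on yolk, 7 of 13 were higher and 4 lower. The genes moved far in both directions, as ctsll had 791 and 795 RPKM at 6 h.p.f. against 20.8 and 22.0 RPKM at 4 h.p.f. and ctsz 4.82 and 4.26 RPKM against 109 and 112 RPKM. Tubulins and actins were higher in 12 and lower in 6 of 20. The tubulin gene tuba8l4 had 613 and 603 RPKM at 6 h.p.f. against 97.3 and 98.9 RPKM at 4 h.p.f. in morphants, and 315 against 164 RPKM in controls. The largest fall was that of tubb4bl, and tubgcp2 and tubgcp5, of the nucleating complex, fell by 1.85 and 1.78.

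**Figure D4:**
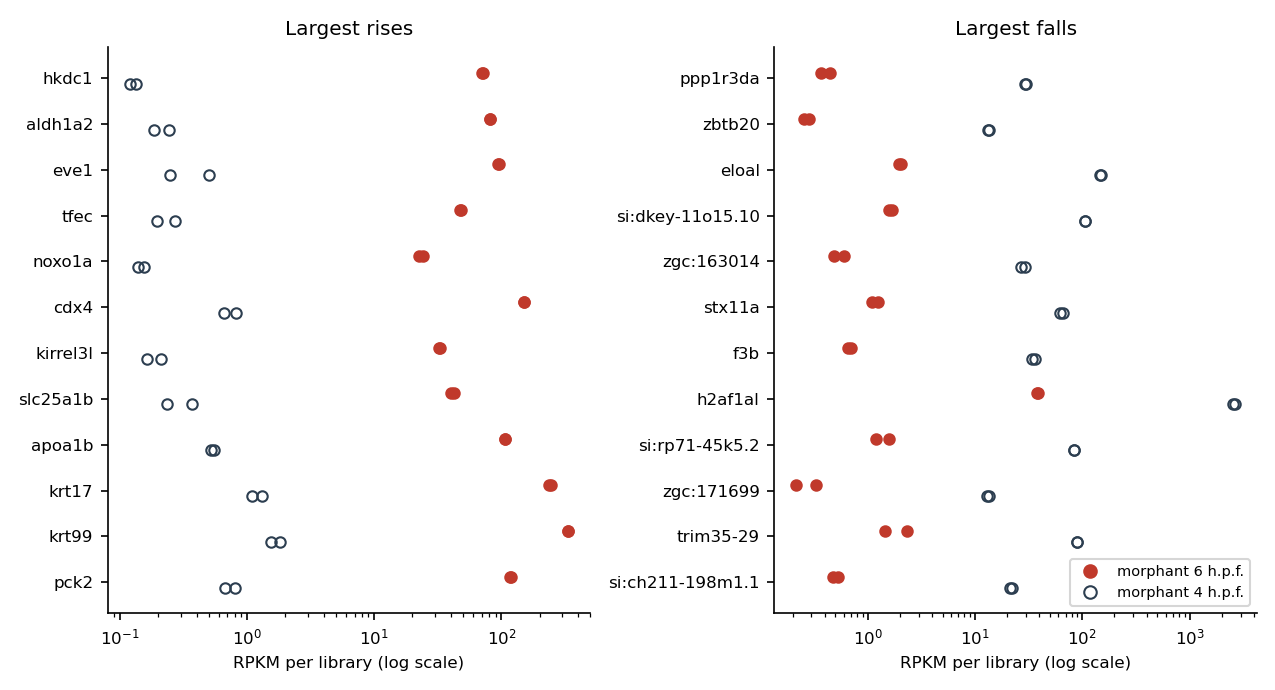
RPKM on a log axis in the 2 morphant libraries of 6 h.p.f. (filled) and the 2 of 4 h.p.f. (open) for the 12 genes with the largest rises (left) and the 12 with the largest falls (right) that reached 10 RPKM and 10 unique reads per library. The stages do not overlap in any of them.

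Among genes above these minimums the largest rise was that of hkdc1, which encodes a hexokinase domain protein. It had 70.8 and 71.6 RPKM in morphants at 6 h.p.f., against 0.134 and 0.119 RPKM at 4 h.p.f. (log2 change 9.93, SE 0.0779, edgeR adjusted p 1.72e-26). After aldh1a2 followed eve1, a homeobox gene of ventral and posterior mesoderm (96.1 and 94.2 RPKM against 0.499 and 0.246 RPKM), and tfec, a factor of the MiT family (47.6 and 47.8 RPKM against 0.196 and 0.271 RPKM). The other 8 were noxo1a, cdx4, kirrel3l, slc25a1b, apoa1b, krt17, krt99 and pck2, with log2 changes of 8.23 for the first and 7.90 for pck2, the mitochondrial enzyme that makes phosphoenolpyruvate. Thus 2 keratins, an apolipoprotein, a mitochondrial citrate carrier (slc25a1b) and posterior patterning genes stood among them. Their low 4 h.p.f. values rest on few reads, and the log2 change of aldh1a2 ranged from 6.09 to 9.77 over the settings tried. Without morphant 4 h.p.f. replicate 1 that of eve1 was 9.38 and that of slc25a1b 9.12, and without replicate 2 that of slc25a1b was 7.49.

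The largest fall was that of ppp1r3da, a regulatory subunit of protein phosphatase 1, with 0.369 and 0.450 RPKM at 6 h.p.f. against 29.3 and 29.8 RPKM at 4 h.p.f. (log2 change −6.79). Its value rests on few reads at 6 h.p.f., since without morphant 6 h.p.f. replicate 2 it was −7.48 and without replicate 1 −6.32, behind eloal (−6.52) and zbtb20 (−6.48), and in both limma fits eloal fell more. It was followed by zbtb20, a zinc finger repressor (−6.52), eloal, si:dkey-11o15.10 (−6.31), zgc:163014 (−6.30), the syntaxin stx11a (−6.29) and f3b, a tissue factor gene (−6.23). Of the 12, si:dkey-11o15.10 and si:rp71-45k5.2 were low before genome activation. The first was not listed in controls at 2 h.p.f. and the second had 8.78 RPKM there, against 107 and 106 RPKM and 83.4 and 84.0 RPKM in morphants at 4 h.p.f. and 1.58 and 1.71 RPKM and 1.21 and 1.59 RPKM at 6 h.p.f. In both, the 4 h.p.f. level was the highest of the stages given.

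Some genes had no unique read in both libraries of a stage, for which no fold is given. Highest at 6 h.p.f. with none at 4 h.p.f. were rltgr (38.2 and 39.9 RPKM), zgc:194839 (29.7 and 30.9 RPKM), the fatty acid-binding fabp1b.1 (21.0 and 18.0 RPKM) and the midkine mdkb (16.53 and 17.02 RPKM). In the other direction levels were lower. The highest were cyp1b1, a cytochrome P450 (4.66 and 3.92 RPKM at 4 h.p.f.), fgf20a, rpp25b and nlk2, a kinase that acts on Wnt signalling (3.17 and 3.01 RPKM). The files leave out values under 0.1 RPKM, so that a missing gene may be below that level.

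Most of what fell had been in the embryo before the zygotic genome was active, and nearly as often so had the genes that moved less. The share was lower among the genes that rose. The level filter averages over the 2 h.p.f. libraries too, which favours genes present then. Of the 4179 genes lower by more than 2-fold in morphants, 4087 had at least 1 RPKM in controls at 2 h.p.f. (97.8%), against 1003 of the 1672 that were higher by more than 2-fold (60.0%) and 3825 of the other 4020 (95.2%). Among the 315 genes higher by more than 16-fold (3.19% of all), 19 had that level (6.03%). Median transcript length was alike, with 1813 nt in the genes that rose by more than 2-fold, 1899 nt in those that fell and 1850 nt in the rest. Genes that were higher in morphants by more than 2-fold had a median log2 change of 1.58 in controls, and those that were lower one of −1.88.

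**Figure D5:**
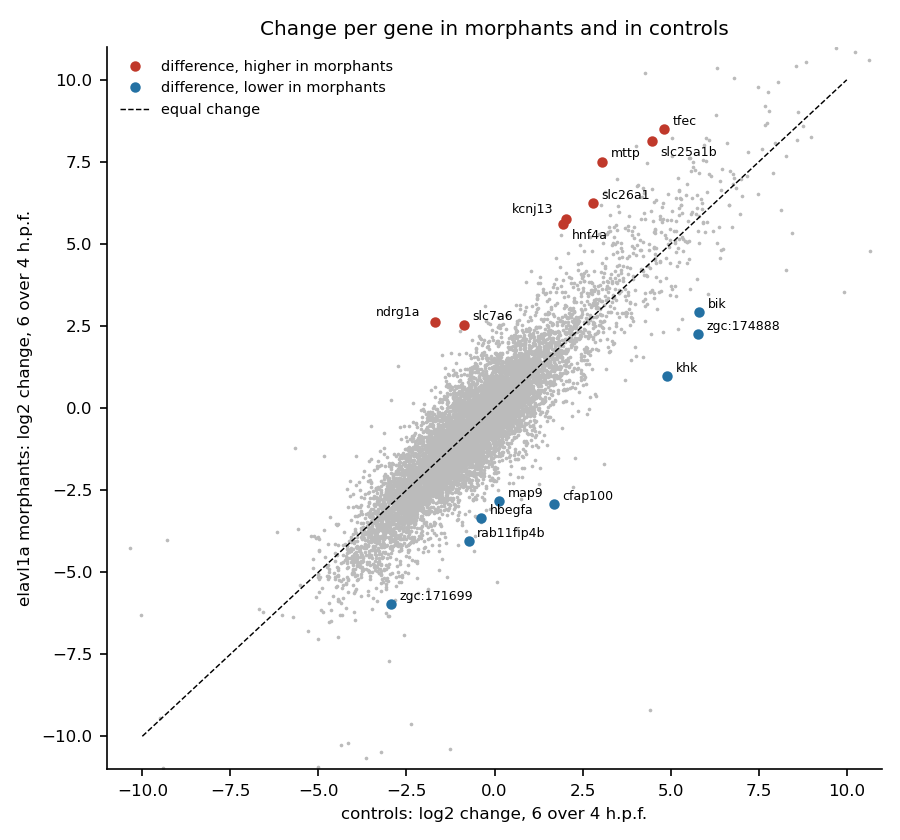
Log2 change from edgeR, 6 over 4 h.p.f., of 9819 of 9871 genes in morphants (vertical axis) and in controls (horizontal axis). The genes not drawn have a change beyond 11 in either group. The dashed line marks equal change, and the coloured genes are the 8 with the largest difference on either side among those with 10 RPKM in a group and 10 unique reads in every library of both. Grey points farther from the line are genes under these minimums.

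Over all 9871 genes the log2 changes of morphants and controls had a Pearson correlation of 0.90 and a Spearman correlation of 0.88, as a description over genes, which share their libraries. Even so the difference of changes was called in 7322 genes (74.2%), 3482 higher (35.3%) and 3840 lower (38.9%) in morphants. By more than 2-fold it was higher in 982 (9.95%) and lower in 1092 (11.1%). Of 8702 genes called in both, 883 changed in opposite directions, 508 of them higher in morphants and 375 lower, with library totals.

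Of the genes above the minimums, mttp had the largest difference on the higher side. This lipid transfer gene, which loads apolipoprotein B, had 128 and 131 RPKM in morphants at 6 h.p.f. against 1.06 and 0.732 RPKM at 4 h.p.f., and controls averaged 36.3 and 5.07 RPKM (difference 4.455, SE 0.116, edgeR adjusted p 3.84e-17). For hnf4a, a nuclear receptor of liver and yolk cell, the values were 105 and 99.3 RPKM against 2.96 and 2.19 RPKM, with 25.9 and 7.39 RPKM in controls. In both genes morphants were the lower group at 4 h.p.f. and the higher one at 6 h.p.f. The amino acid carrier slc7a6 had 74.6 and 69.8 RPKM against 13.4 and 13.9 RPKM in morphants, but 7.97 against 13.8 RPKM in controls. A similar contrast was seen in ndrg1a, with 10.5 and 10.5 RPKM against 1.68 and 1.99 RPKM in morphants and 0.675 against 1.89 RPKM in controls. In the pooled RNA structure profiles of morphants, described below, slc7a6 was also higher at 6 h.p.f. (69.49 RPKM against 50.56 RPKM). There ndrg1a went the other way, with 39.55 RPKM at 6 h.p.f. against 73.29 RPKM at 4 h.p.f.

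On the lower side the cilia gene cfap100 had 0.918 and 0.937 RPKM at 6 h.p.f. against 5.62 and 5.79 RPKM at 4 h.p.f. in morphants, while controls averaged 11.1 and 3.84 RPKM (difference −4.61, SE 0.179, edgeR adjusted p 5.42e-15). The fructose kinase gene khk rose to 2.56 and 2.12 RPKM against 1.03 and 1.24 RPKM in morphants, and to 30.0 against 1.28 RPKM in controls. For hbegfa, an EGF receptor ligand, morphants had 6.58 and 5.96 RPKM against 58.2 and 56.6 RPKM, and controls 17.3 against 22.1 RPKM. The microtubule gene map9 had 3.18 and 3.16 RPKM against 20.3 and 19.8 RPKM in morphants and 13.8 against 12.8 RPKM in controls. The pro-apoptotic gene bik had 9.40 and 9.12 RPKM against 1.12 and 1.58 RPKM, and 28.0 against 0.742 RPKM in controls.

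The icSHAPE structure profiles of morphants carry a level per transcript of their own, pooled over libraries, which gave a separate description. Whether it was computed from probed RNA, unprobed RNA or both is not stated in the sources used here. In them 3704 of the tested genes had a value at both stages. The log2 ratio of 6 over 4 h.p.f. had a Pearson correlation of 0.84 with the RNA-seq change over these genes. Of 618 genes that rose by more than 2-fold in RNA-seq, 577 were higher in these profiles, and of 848 that fell by more than 2-fold, 828 were lower. The gene ndrg1a, given above, rose in RNA-seq but was lower at 6 h.p.f. in these profiles. The elavl1a transcript had 416 RPKM at 6 h.p.f. and 247 RPKM at 4 h.p.f. The 6 h.p.f. profile lists 4303 transcripts and the 4 h.p.f. profile 6912, so that genes low at one stage are missing from this comparison.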

How the data were processed

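Reads of poly(A) RNA were trimmed with cutadapt and Trimmomatic by the authors and mapped to RefSeq transcripts with bowtie2 at a mapping quality of at least 20. The deposited RNA-seq tables hold, per transcript, read counts (unique and multiple) and RPKM, and leave out values under 0.1 RPKM, which were set to 0 here. The RPKM values of the pooled morphant icSHAPE profiles were also calculated by the authors. Columns of the remaining profiles and the crosslink peaks were not analysed here.

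Unique read counts of all 10 RNA-seq libraries (5 groups of 2) were fitted with edgeR 4.0.16 in R 4.3.3, scaled by library totals. Contrasts were morphant 6 against 4 h.p.f., the same in controls, and their difference. Tests covered 9945 transcripts that averaged 1 RPKM or more, and an adjusted p under 0.05 was a call. The procedure was tested on simulated data in which 200 genes were changed. Most genes moved in the real libraries, so the simulation cannot speak to the choice of scaling. Multiple reads were 1.93% to 2.45% of reads in morphant libraries. Symbols were matched by RefSeq accession (13579 of 13856 transcripts).

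Gene lists were read by symbol or name pattern. Named were the 12 largest rises and 12 largest falls among genes with a symbol, 10 RPKM at the higher stage and 10 unique reads in each morphant library, up to 4 called members per list and direction plus members whose role is described, the 8 largest differences on either side among genes with 10 RPKM in a group and 10 unique reads in all 8 libraries, 4 genes without reads at one stage each way, and elavl1a and elavl1b. The members and lists were chosen with earlier results of these data known. Alternatives were TMM, DESeq2 1.42.0, other level filters, all assigned reads, limma 3.58.1 on log2(RPKM + 1) and log2(RPKM + 0.1), a replicate block, the 4 morphant libraries alone, reads summed per gene, and leaving out each library.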

Additional observations from a re-analysis of the deposited data

Results flagged for a closer look

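Groups of 2 libraries are too small to look for a single outlying library. The following genes had changes from 4 to 6 h.p.f. that differed between morphants and controls by edgeR's test of the difference, the 8 largest on either side among genes with 10 RPKM in a group and 10 unique reads in every library. The difference of log2 changes, morphant minus control, was 4.455 for mttp, 4.33 for ndrg1a, 3.71 for kcnj13, a potassium channel gene, 3.68 for tfec, 3.66 for slc25a1b, 3.66 for hnf4a, 3.43 for slc26a1, a sulfate carrier gene, and 3.41 for slc7a6. On the other side it was −4.61 for cfap100, −3.94 for khk, −3.51 for zgc:174888, −3.33 for rab11fip4b, an effector of Rab11, −3.05 for zgc:171699, −2.98 for hbegfa, −2.96 for map9 and −2.90 for bik. Without morphant 4 h.p.f. replicate 2 the value of kcnj13 was 4.81 and that of slc25a1b 3.01, without morphant 4 h.p.f. replicate 1 slc25a1b had 4.64, and without control 4 h.p.f. replicate 2 kcnj13 had 2.99. All 16 kept their direction under every alternative in which they were tested. They were picked as the largest differences of the main fit on the same libraries, so this is no separate support. With the filter at a mean of 5 RPKM, ndrg1a, kcnj13, cfap100 and zgc:174888 were not tested. In the pooled structure profiles of morphants ndrg1a was lower at 6 h.p.f. than at 4 h.p.f., against the rise in RNA-seq.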

How the results depend on the processing

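Scaling moved the split of calls most. With library totals 34.3% of called transcripts were higher at 6 h.p.f. in morphants, with TMM 48.0% and with DESeq2 52.1%. Counts of calls over all transcripts stayed within 1.5 times of the main ones under each alternative. Within lists TMM moved some further. Lower calls became 17 (from 26) in mRNA decay, 3 (from 6) in first-wave transcription factors, 1 (from 4) in Wnt, 1 (from 2) in Fgf, 2 (from 7) in surface ectoderm, 6 (from 26) in cytosolic ribosomal proteins, 7 (from 14) in the proteasome, 3 (from 8) in splicing and 2 (from 4) in cathepsins. Higher calls became 3 (from 1) in germ plasm, 4 (from 2) in histone storage and 67 (from 44) in cytosolic ribosomal proteins. Leaving out each library in turn gave 3109 to 3124 transcripts higher and 6008 to 6037 lower, and for the difference of changes 3321 to 3424 higher and 3710 to 3776 lower. Same-numbered libraries did not deviate together, with a correlation over transcripts of 0.0035 between the morphant stages, and the main fit did not pair them. With 2 libraries per group this cannot tell whether same-numbered libraries share a clutch. With a replicate block 3188 transcripts were higher and 6103 lower, and 3492 and 3844 for the difference. The 40 values of genes named for the size of their change or difference kept their direction in all 564 refitted values. These genes were picked as the most extreme of the main fit on the same libraries. Keeping direction was therefore nearly given and is no separate support. Summing reads over the transcripts of a gene moved the median of cytosolic ribosomal protein genes over that of all genes to 0.81, against 0.74. Depth limits genes near the listing limit of 0.1 RPKM. With 2 libraries per group the spread itself is poorly known.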
